A study of Mus musculus with 14 samples.

Results

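The replication-dependent histone genes are the clustered and mostly intronless genes that supply the histone proteins packaged onto new DNA in S phase. They were taken as the protein-coding symbols of the Hist1, Hist2, Hist3 and Hist4 clusters in the GENCODE M21 mouse annotation, without pseudogenes and without 3 genes expressed mainly in the male germ line (Hist1h1t, Hist1h2ba and Hist1h2aa). This rule kept 64 genes of 53239 gene symbols measured, from 70 symbols of that form in the annotation, of which 3 were not protein coding. By class they were 5 H1 linker histone genes, 17 H2A, 17 H2B, 12 H3 and 13 H4 genes. By cluster 51 lay in Hist1 on chromosome 13, 10 in Hist2 on chromosome 3, 2 in Hist3 on chromosome 11 and 1 in Hist4 on chromosome 6.

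A nucleosome wraps DNA around a core of H2A, H2B, H3 and H4, and H1 sits where the DNA enters and leaves it. The mRNAs of these genes typically end in a conserved stem-loop in place of a poly(A) tail. The stem-loop is bound by SLBP, which acts in the processing, translation and decay of the mRNA, so that the mRNAs are abundant in S phase and are lost when replication ends. In the testis, S phase takes place in dividing spermatogonia and in preleptotene spermatocytes, and later germ cells replace many of these histones with germline variants and then with protamines.

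The libraries came from testes of 21-day-old C57BL/6 males, 3 of them Adad2 +/+ (animals 121, 140 and 17) and 4 of them homozygous for the Adad2 em3 mutation, M/M (animals 12, 69, 93 and 94). ADAD2 is an RNA-binding protein of mid- and late-meiotic spermatocytes. All 7 animals also carried Stra8-iCre and 1 Rpl22-HA (RiboTag) allele, so ribosomes were tagged with HA in germ cells that had expressed Stra8 and in their descendants. Each animal gave an input library, from whole-testis lysate that also held Sertoli, Leydig and other untagged cells, and an IP library, from RNA pulled down with anti-HA. The libraries were stranded total RNA depleted of ribosomal RNA, a design that does not select for poly(A) tails. The IP/input ratio of a gene, used as the measure of ribosome association, therefore held both its ribosome occupancy and the share of its RNA that lay in tagged cells, and these cannot be told apart here.

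Total estimated counts ran from 22987974 to 30871330 per library. The number of gene symbols above 0 did not follow depth. It was 25319 to 27791 in wild-type input and 15438 to 27002 in mutant input, where animals 12 and 69 had 16024 and 15438. In IP it was 19655 to 21880 in wild type and 12744 to 15024 in the mutants. Adad2 itself stood at 25, 27.3 and 30.1 CPM (counts scaled to a common library size) in wild-type input and 5.31, 5.04, 10.9 and 11.3 in mutant input, and at 100.2, 109 and 99.2 against 10.6, 11.3, 8.90 and 6.33 in IP. The mutant libraries were all below the wild-type ones, with a log2 fold change of -1.76 (SE 0.37, adjusted p = 0.347) in input and -3.44 (SE 0.24, adjusted p = 0.014) in IP, the latter called by edgeR. Values by library are given throughout in the order of animals 121, 140 and 17 for wild type and 12, 69, 93 and 94 for mutants.

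The stem-loop was looked for as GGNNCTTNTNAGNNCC, on the sense strand of the annotated transcripts. It was present in 45 of the 64 genes and in 0.221% of all 141767 transcripts of the annotation. In 27 of the 45 it lay within the last 200 bases of the transcript, as in 0.151% of coding genes. In the other 18 the annotated transcript ran farther past the loop, by up to 4884 bases in Hist1h1d. Most of the genes without a match, 13 of 19, have annotated transcripts that stop less than 20 bases after the coding sequence, so the window that would hold the loop is not annotated for them. The loops are shown because they are the feature that the genes share in the RNA and because their versions differ between classes. The 8 versions found are printed 5′ to 3′ with 5 flanking bases on each side and the 16-base stem-loop in capitals:

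Hist1h2bm: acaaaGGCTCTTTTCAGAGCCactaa
Hist1h4c: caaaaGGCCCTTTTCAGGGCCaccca
Hist1h2bb: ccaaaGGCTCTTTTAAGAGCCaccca
Hist1h4j: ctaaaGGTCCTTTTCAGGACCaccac
Hist1h4i: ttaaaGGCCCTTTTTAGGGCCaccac
Hist1h4a: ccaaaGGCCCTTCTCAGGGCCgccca
Hist1h3g: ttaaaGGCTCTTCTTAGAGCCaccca
Hist2h2ac: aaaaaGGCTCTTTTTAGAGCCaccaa

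The version of Hist1h2bm, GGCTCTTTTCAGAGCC, was the commonest, in 26 genes of the H1, H2A, H2B and H3 classes. That of Hist1h4c, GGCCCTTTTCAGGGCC, was found in 7 genes, all of them H4. The version of Hist1h2bb, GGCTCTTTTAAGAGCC, was found in 5 genes, 2 H2B and 3 H3. The H4 genes held 4 of the 8 versions and shared none of them with another class. The other versions were in 1 or 2 genes each.

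In the promoters, taken from RefSeq as 250 bases before to 50 after the start, 59 of the 64 genes were matched. The TATA box sequence TATAAA, counted on either strand like those below, was in 55.9% of the 59 and in 13.62% of 32851 promoters. CCAAT was in 84.7% against 37.41%, and by class in all promoters of H1, H2A, H2B and H3 genes but in 3 of 12 H4 promoters. The octamer ATTTGCAT was in 18.6% against 1.74%, all of them H2A (6 of 17) or H2B (5 of 15) promoters. AAACACA was in 10.2% against 7.18%, in 4 of 5 H1 promoters (all but Hist1h1a) and in 1 H2A and 1 H2B promoter. A match is only a description of the letters in this window. The promoter of Hist1h1a, the gene with the highest level below, is shown with its CCAAT and TATAAA in capitals, and that of Hist1h2bb with ATTTGCAT as well, as 1 of the 11 promoters with that motif (GRCm38.p6, both on the plus strand):

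Hist1h1a chr13:23763418-23763717: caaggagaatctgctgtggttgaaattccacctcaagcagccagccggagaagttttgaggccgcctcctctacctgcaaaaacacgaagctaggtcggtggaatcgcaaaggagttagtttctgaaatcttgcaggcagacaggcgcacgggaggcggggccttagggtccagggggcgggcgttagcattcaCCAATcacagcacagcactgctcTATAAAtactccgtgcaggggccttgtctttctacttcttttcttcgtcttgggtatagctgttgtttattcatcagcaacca
Hist1h2bb chr13:23746484-23746783: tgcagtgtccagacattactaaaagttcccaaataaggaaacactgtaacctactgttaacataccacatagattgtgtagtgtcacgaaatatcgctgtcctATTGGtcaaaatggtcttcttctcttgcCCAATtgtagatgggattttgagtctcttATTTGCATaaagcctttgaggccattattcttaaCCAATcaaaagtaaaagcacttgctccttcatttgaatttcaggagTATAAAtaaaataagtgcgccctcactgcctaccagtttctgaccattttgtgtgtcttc

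Of the 64 genes, 59 have a single exon in every annotated transcript and 59 have a single transcript. Their transcripts are 312 to 7425 bases long with a median of 579. Many are near copies of each other. The share of 100-base stretches found in no other gene was taken from the transcript where it was highest. For genes with several transcripts it can thus overstate how unique the gene is. Over all members, the median share was 62.2%. It was 99.2% in H1, 81.0% in H4, 59.9% in H2B, 50.25% in H3 and 34.7% in H2A. For 25 genes it was under 50%, and for these the split of reads between copies is uncertain, so single values of H2A genes carry less weight than sums.

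In wild-type input the 64 genes together stood at 1062, 2222 and 2008 CPM, and in wild-type IP at 11809, 13139 and 9189 CPM. In the mutants they stood at 1831, 2108, 2104 and 2426 CPM in input and at 8556, 17172, 16214 and 18323 CPM in IP. Every IP library lay above every input library. Within animals the IP/input ratio of the sum was 11.1, 5.91 and 4.58 in wild type (7.20 ± 3.46, SD, n = 3) and 4.67, 8.15, 7.71 and 7.55 in mutants (7.02 ± 1.59, SD, n = 4). The ranges of the ratio overlapped between genotypes. The low input sum of wild-type animal 121 gave the highest ratio, and the low IP sum of mutant 12 the second lowest. As a share of all counts the genes took 0.103% to 0.218% of wild-type input, 0.192% to 0.234% of mutant input, 0.862% to 1.24% of wild-type IP and 0.881% to 1.93% of mutant IP.

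**Figure D1:**
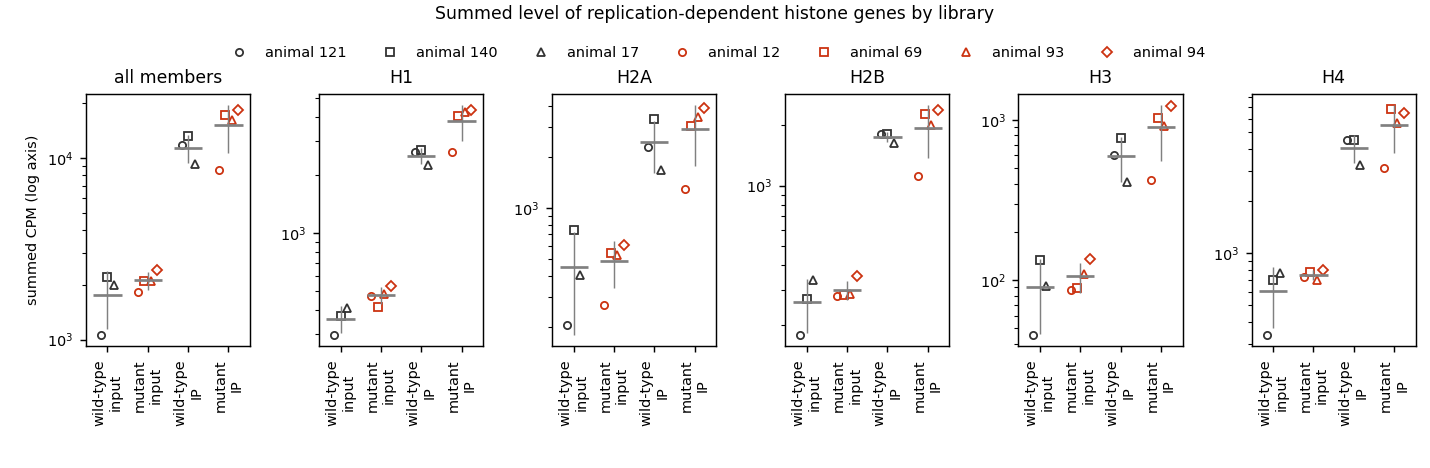
Summed level of the replication-dependent histone genes and of each class, in CPM on a log axis, for every library, with animals as symbols and group mean ± SD as grey bars. IP libraries lie above input libraries in every panel (all genes: 8556 to 18323 against 1062 to 2426 CPM), wild-type input 121 is the lowest input library and mutant IP 12 the lowest mutant IP library.

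H4 was the class with the largest share of the members' TPM (a level per transcript length), 38.5% to 49.3% per library, and H3 had the smallest, 3.9% to 6.8%. The order of the other classes changed between libraries: H2A ran from 10.6% to 31.2%, H1 from 10.5% to 21.1% and H2B from 14.1% to 22.3%. The levels were unequal within classes as well. The 5 genes with the highest mean TPM, Hist1h1a, Hist1h4k, Hist1h4m, Hist2h2aa2 and Hist1h4c, held 46.9% to 57.3% of the members' TPM. TPM ranks and shares depend on the annotated lengths, and some entries, such as Hist1h4k, hold the coding sequence alone. In wild-type IP, 42 genes had a mean of at least 100 TPM and 9 of at least 1000, with a median over the 64 genes of 168 TPM, against 8 genes at 100 or more in wild-type input and a median there of 15.9 TPM. A total of 48 genes had an estimated count above 0 in every library, and 47 still did after rounding, the exception being Hist1h2ao. A 0 allows up to 0.096 to 0.132 CPM depending on the library, the value of 3 counts, for counting error alone.

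**Figure D2:**
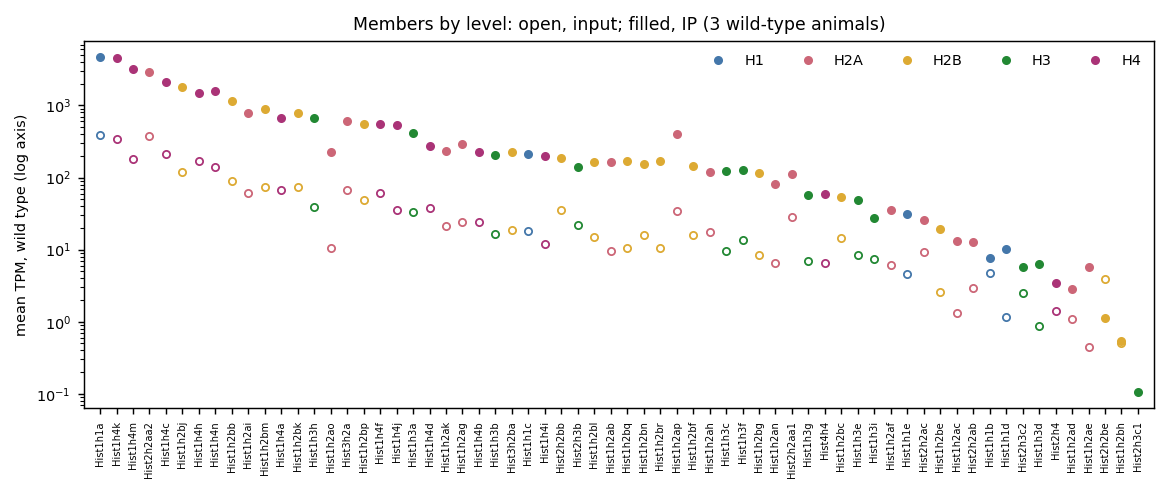
Mean TPM in wild type (n = 3, log axis) of each gene in input (open circles) and IP (filled circles), in descending order of mean TPM over all 14 libraries and coloured by class; values of 0 are not drawn. Hist1h1a has the highest mean in both fractions (395 and 4638 TPM), and Hist2h2be and Hist2h3c1 are among the lowest.

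Among the H1 genes, Hist1h1a (chr13:23763666-23764406), a linker histone found in few tissues, testis and thymus among them, had by far the highest level. It stood at 248, 306 and 343 CPM in wild-type input and 2228, 2288 and 1964 in wild-type IP, with a log2 IP/input of 3.17 (SE 0.18, adjusted p = 0.00634). In the mutants it stood at 415, 342, 406 and 456 CPM in input and 2409.9, 3481, 3678 and 3759 in IP, with 3.03 (SE 0.16, adjusted p = 0.000951). It was the member with the most CPM in 13 of 14 libraries, all but wild-type input 140. Its transcript has 48 bases after the coding sequence, with no match to the stem-loop there, and all of its 100-base stretches are unique.

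Hist1h1c (chr13:23738808-23740367), a linker histone also made in non-dividing cells, stood at 27.0, 38.9 and 34.6 CPM in wild-type input and 266, 287 and 172 in wild-type IP. The mutants had 36.5, 46.2, 41.5 and 38.4 CPM in input and 128, 353, 375 and 418 in IP. IP lay above input in every animal, with log2 IP/input of 3.15 (SE 0.25, adjusted p = 0.007) in wild type and 2.85 (SE 0.34, adjusted p = 0.00637) in mutants. Hist1h1e (chr13:23620629-23622558), another somatic linker histone, was lower, at 9.14, 11.6 and 11.3 CPM in wild-type input and 49.5, 40.4 and 43.2 in IP, and 5.5, 10.8, 12.2 and 12.7 in mutant input and 35.9, 89.7, 59.0 and 64.2 in IP. In IP/input it had 2.37 (SE 0.21, adjusted p = 0.00829) and 2.59 (SE 0.27, adjusted p = 0.004). Hist1h1b (chr13:21779883-21780625), the remaining linker histone named by the rule and one tied to dividing cells, was the exception in its class. It stood at 2.20, 3.54 and 5.22 CPM in wild-type input and 3.78, 3.77 and 3.14 in IP, and at 5.80, 0, 3.34 and 6.64 in mutant input and 5.72, 8.82, 4.73 and 7.09 in IP. Its fractions overlapped and its log2 IP/input of 0.35 (SE 0.60, adjusted p = 0.689) in wild type and 1.23 (SE 2.31, adjusted p = 0.793) in mutants was not called. Hist1h1d was called in both genotypes, so 4 of 5 H1 genes were called higher in IP in each.

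Among the H2A genes the level was concentrated in Hist2h2aa2 (chr3:96239749-96240276), 1 of a pair of near-identical Hist2 genes, with no 100-base stretch that is unique. It stood at 78.0, 309.5 and 159 CPM in wild-type input and 762, 1249.7 and 587 in IP, and at 80.7, 256, 215 and 258 in mutant input and 439, 925, 1208 and 1233 in IP. Its log2 IP/input was 2.70 (SE 0.37, adjusted p = 0.018) in wild type and 2.26 (SE 0.15, adjusted p = 0.00143) in mutants, both called. Its partner Hist2h2aa1 (chr3:96245497-96246082) was assigned 0.078, 36.4 and 12.1 CPM in wild-type input, 21.9, 75.8 and 20.7 in IP, 38.6, 0, 6.15 and 11 in mutant input and 1.11, 0, 29.0 and 7.16 in IP. These values fell to 0 or near it in both fractions. The sum of the pair, which does not depend on how reads were split between them, was 78.1, 346 and 171 CPM in wild-type input and 784, 1326 and 608 in IP. In mutants the sum was 119, 256, 221 and 269 CPM in input and 440.0, 925, 1237 and 1239.7 in IP. IP/input of the sum ran from 3.56 to 10 in wild type and from 3.62 to 5.59 in mutants.

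Hist3h2a (chr11:58954685-58956830), the H2A gene of the Hist3 cluster, had the smallest standard error of the class in wild type. It stood at 114, 218 and 199 CPM in wild-type input and 979, 1103 and 818 in IP, and at 129, 190.5, 211 and 221 in mutant input and 665, 1151, 1116 and 1258 in IP. With log2 ratios of 2.80 (SE 0.27, adjusted p = 0.0092) and 2.47 (SE 0.10, adjusted p = 0.000618), it was higher in IP in both genotypes. Hist1h2ai (chr13:21716422-21716814) had 1.88, 46.8 and 6.38 CPM in wild-type input and 145, 255 and 53.8 in IP, against 1.76, 38.7, 23.1 and 34.4 in mutant input and 58.1, 189.7, 334 and 522 in IP. Its input values differed by over 20 times between animals of 1 genotype, and its log2 IP/input of 4.07 (SE 0.96, adjusted p = 0.0631) was not called in wild type while 3.79 (SE 0.53, adjusted p = 0.0156) was called in mutants. The H2A genes with low values were as uneven. Hist2h2ab (chr3:96219865-96220308), which had the lowest wild-type log2 IP/input of the class, 1.33 (SE 1.20), stood at 0.432, 1.58 and 1.27 CPM in wild-type input, 1.75, 6.71 and 0.493 in IP, 0, 0, 2.77 and 1.72 in mutant input and 0, 8.45, 1.80 and 7.09 in IP. Hist1h2ah (chr13:22035164-22035568) stood at 0, 16.4 and 0.288 CPM in wild-type input, 29.6, 34.5 and 7.79 in IP, 0.115, 0.141, 1.89 and 4.02 in mutant input and 4.83, 40.4, 58.4 and 55.1 in IP. It was called in mutants, with 5.43 (SE 0.90, adjusted p = 0.0163), and not in wild type, with 4.98 (SE 2.25, adjusted p = 0.217).

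Hist1h2ao (chr13:21810465-21810944) and Hist1h2ap (chr13:21833026-21833507) share all but 7.3% and 7.8% of their 100-base stretches with other genes, and their reads were split in opposite ways in different libraries. Hist1h2ao had 3.77, 0 and 9.95 CPM in wild-type input, 0, 112 and 61.5 in IP, 11.1, 22.3, 29.4 and 25.1 in mutant input and 54.9, 283, 367 and 405 in IP. Hist1h2ap had 0, 42.4 and 0 CPM in wild-type input, 143, 171 and 11.6 in IP, 0, 0, 0 and 10.2 in mutant input and 6.35, 0, 0 and 0 in IP. In every library where 1 of them was at 0, the other was above 0. Their sum was 3.77, 42.4 and 9.95 CPM in wild-type input, 143, 283 and 73.0 in IP, 11.1, 22.3, 29.4 and 35.4 in mutant input and 61.2, 283, 367 and 405 in mutant IP, and the genotypes overlapped in both fractions. IP exceeded input in every animal, by 6.68 to 37.9 times in wild type and 5.51 to 12.7 times in mutants.

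Among the H2B genes, Hist1h2bj (chr13:22043214-22043676) had the highest mean TPM. It stood at 20.1, 42.1 and 80.6 CPM in wild-type input and 503, 397 and 429 in IP, and at 57.0, 48.3, 41.7 and 47.3 in mutant input and 147, 491, 365 and 547 in IP. The log2 ratio was 3.72 (SE 0.55, adjusted p = 0.0208) in wild type and 2.87 (SE 0.47, adjusted p = 0.026) in mutants. Hist1h2bb (chr13:23746734-23747241) had 28.9, 46.0 and 47.6 CPM in wild-type input and 300.0, 352 and 306 in IP, and 51.1, 59.0, 55.8 and 68.7 in mutant input and 235, 401, 427 and 404 in IP. Its ratio was among the steadiest, at 3.31 (SE 0.19, adjusted p = 0.00634) and 2.61 (SE 0.17, adjusted p = 0.00142). Hist1h2bm (chr13:21722044-21722567), with 93.4% unique stretches, had 24.3, 33.4 and 46.7 CPM in wild-type input, 278, 276 and 228 in IP, 45.8, 36.6, 40.0 and 45.1 in mutant input and 109.7, 343, 326 and 389 in IP. It was called in both genotypes, at 3.26 (SE 0.30, adjusted p = 0.00861) and 2.68 (SE 0.42, adjusted p = 0.0191). Hist3h2ba (chr11:58948920-58949533), the H2B gene beside Hist3h2a, had 7.54, 14.4 and 11.7 CPM in wild-type input, 75.1, 107 and 69.1 in IP, 13.1, 12.1, 13.4 and 14.8 in mutant input and 60.4, 102, 98.3 and 139 in IP, with log2 IP/input of 3.23 (SE 0.21, adjusted p = 0.00642) and 2.85 (SE 0.27, adjusted p = 0.00296).

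Some H2B genes were called in wild type alone. Hist1h2bg (chr13:23571396-23572013) stood at 4.79, 4.74 and 5.59 CPM in wild-type input, 47.5, 37.0 and 41.8 in IP, 5.15, 1.87, 6.37 and 12.0 in mutant input and 14.3, 71.5, 53.0 and 62.4 in IP, with 3.37 (SE 0.19, adjusted p = 0.00634) in wild type and 2.99 (SE 0.70, adjusted p = 0.0529) in mutants. Hist1h2bq (chr13:21806612-21810197) stood at 1.45, 6.20 and 2.06 CPM in wild-type input, 25.2, 44.1 and 28.0 in IP, 3.70, 8.06, 9.23 and 15.2 in mutant input and 32.5, 40.4, 61.0 and 25 in IP, with 3.87 (SE 0.37, adjusted p = 0.00897) and 2.24 (SE 0.53, adjusted p = 0.054). At most 5.4% of the stretches of any of its transcripts are unique, and 0.0% in the transcript that held most of its counts. Its sum with the similar Hist1h2br was 3.26, 11.7 and 3.87 CPM in wild-type input, 48.2, 86.3 and 53.2 in IP, 5.95, 16.1, 18.3 and 29.9 in mutant input and 62.3, 80.8, 120 and 48.7 in mutant IP. The difference between genotypes in IP/input was not called for Hist1h2bq, at -1.33 (SE 0.65, adjusted p = 0.742).

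Hist2h2be (chr3:96221119-96223738) and Hist1h2bh (chr13:23541714-23543392) were the 2 genes below 0 in wild-type IP/input. Hist2h2be, with a transcript that runs far past the coding sequence, stood at 20.6, 6.59 and 10.1 CPM in wild-type input and 1.25, 3.33 and 2.04 in IP, each IP library below its own input. Its log2 IP/input of -2.11 (SE 0.74, adjusted p = 0.143) was not called by edgeR and was called by DESeq2 (adjusted p = 0.00651). In mutants it stood at 12.2, 0, 3.34 and 5.40 CPM in input and 20.5, 0, 0 and 5.64 in IP, with no common direction. Hist1h2bh was near the limit of detection, at 1.10, 0.963 and 0.905 CPM in wild-type input, 0.125, 0.823 and 0.987 in IP, 0, 0, 0.440 and 1.41 in mutant input and 0, 0, 0 and 0.033 in IP.

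The H3 genes were lower per length. Hist1h3h (chr13:21717659-21718069), with 8.0% unique stretches, stood at 5.42, 21.3 and 10.8 CPM in wild-type input and 138, 189.8 and 86.8 in IP, and at 7.63, 4.12, 8.44 and 16.7 in mutant input and 119, 188, 184 and 288 in IP. It had the largest log2 IP/input of the class, 3.90 (SE 0.46, adjusted p = 0.013) in wild type and 4.50 (SE 0.30, adjusted p = 0.00143) in mutants. Hist1h3a (chr13:23761853-23762386) stood at 9.11, 25.6 and 13.2 CPM in wild-type input, 119.5, 178 and 78.3 in IP, 16.1, 12.2, 21.4 and 26.0 in mutant input and 96.1, 245, 232 and 274 in IP, and was called in both genotypes at 3.33 (SE 0.31, adjusted p = 0.00857) and 3.44 (SE 0.31, adjusted p = 0.00247). Hist1h3b (chr13:23752267-23752886) stood at 5.61, 11.9 and 12.3 CPM in wild-type input, 67.0, 105 and 56.7 in IP, 3.85, 2.18, 17.7 and 20.1 in mutant input and 65.7, 157, 129 and 171 in IP, at 3.28 (SE 0.34, adjusted p = 0.0106) and 3.99 (SE 0.62, adjusted p = 0.0179). Hist2h3b (chr3:96268654-96269141), of the Hist2 cluster, had the smaller ratios 2.33 (SE 0.30, adjusted p = 0.0159) and 2.17 (SE 0.37, adjusted p = 0.0187), from 6.32, 11.4 and 10 CPM in wild-type input, 39.9, 39.6 and 30.4 in IP, 13.5, 16.7, 11.9 and 13.4 in mutant input and 30.9, 76.5, 65.5 and 93.6 in IP. Hist1h3i (chr13:21782960-21783370), the lowest of the class in ratio, stood at 0.981, 2.85 and 3.5 CPM in wild-type input, 8.10, 3.46 and 4.76 in IP, 6.83, 4.33, 2.55 and 3.54 in mutant input and 0.557, 7.48, 14.8 and 12.7 in IP. Its log2 IP/input of 1.5 (SE 0.85, adjusted p = 0.294) and 0.78 (SE 1.90, adjusted p = 0.848) was called in neither genotype.

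Among the H4 genes, Hist1h4k (chr13:21750194-21750505) and Hist1h4m (chr13:21811746-21812147) had the highest TPM and Hist1h4c (chr13:23697635-23698454) the most CPM. The Hist1h4k transcript is annotated with 312 bases, the coding sequence alone, against 820 for Hist1h4c, which raises its TPM relative to its CPM. Hist1h4k stood at 33.6, 79.6 and 87.3 CPM in wild-type input and 645, 640.0 and 406 in IP, and at 76.3, 105, 72.0 and 107 in mutant input and 469, 942, 653 and 869.9 in IP, with log2 IP/input of 3.46 (SE 0.50, adjusted p = 0.0198) and 3.0 (SE 0.15, adjusted p = 0.000808). Hist1h4m stood at 21.2, 98.5 and 48.5 CPM in wild-type input, 609.8, 886 and 395 in IP, 69.4, 113, 107 and 117 in mutant input and 536, 1542, 1251 and 1534 in IP, with 3.97 (SE 0.50, adjusted p = 0.015) and 3.5 (SE 0.19, adjusted p = 0.00097). Only 11.9% of its stretches are unique, and its sum with the similar Hist1h4n was 49.1, 145 and 123 CPM in wild-type input, 1019.6, 1141 and 739 in IP, 113, 162, 147 and 174 in mutant input and 745, 1957, 1488 and 1755 in mutant IP. All of these genes were higher in IP in both genotypes.

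Hist1h4c, with 86.0% unique stretches, stood at 118, 201 and 243 CPM in wild-type input, 1284, 1221 and 888 in IP, 224, 250.3, 192 and 207 in mutant input and 759, 1687, 1511 and 1699 in IP, with 2.95 (SE 0.38, adjusted p = 0.0153) and 2.64 (SE 0.28, adjusted p = 0.00663). Hist1h4j (chr13:21735064-21735837) stood at 14.1, 35.1 and 37.8 CPM in wild-type input, 301, 290.0 and 205 in IP, 30.4, 38.5, 34.1 and 36.7 in mutant input and 235, 404, 347 and 400.3 in IP, with 3.59 (SE 0.49, adjusted p = 0.0176) and 3.28 (SE 0.16, adjusted p = 0.000808). Hist4h4 (chr6:136801553-136804415), the lone gene of the Hist4 cluster, stood at 12.7, 23.9 and 33.9 CPM in wild-type input, 138, 146 and 108 in IP, 42.2, 23.4, 32.0 and 30.2 in mutant input and 122, 187, 178 and 234 in IP, with 2.88 (SE 0.42, adjusted p = 0.0204) and 2.5 (SE 0.31, adjusted p = 0.00609). These genes were called in both genotypes although they lie in different clusters. Hist2h4 (chr3:96261682-96263311) was the H4 gene that was called in neither. It stood at 1.77, 3.16 and 3.21 CPM in wild-type input and 4.20, 3.55 and 4.34 in IP, and at 8.82, 4.16, 4.00 and 2.72 in mutant input and 2.93, 3.72, 3.18 and 10.1 in IP, with 0.92 (SE 0.58, adjusted p = 0.326) and -0.09 (SE 1.60, adjusted p = 0.985).

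Over all members, 44 of 63 tested in wild type were called higher in IP than in input and 0 lower by edgeR, with 50 higher and 1 lower with p under 0.05 before adjustment. Of all 34864 features tested, 13.0% were called higher in IP. The members' median log2 IP/input was 2.98, beside -0.60 over all features. In mutants 40 of 59 tested were called higher and 0 lower, with 48 higher and 0 lower with p under 0.05 before adjustment, against 6.35% of all features, and the median was 2.80 beside -0.63. DESeq2 called 53 higher and 1 lower in wild type, where it called 22.9% of all features higher and 31.2% lower, and 51 higher in mutants, where it called 13.9% higher. IP was above input in every animal for 50 of the 64 members, and 26 members had at least 50 CPM in every IP library. Neither count has a share over all features to set beside it.

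The number of calls depended on which animals were in the fit. Fits with fewer animals have less power for every feature. The share of all features called in them is not given, so a drop in calls is not particular to the members. Without animal 121 or without animal 140, edgeR called 0 of 63 and 0 of 62 members, with smallest adjusted p of 0.0617 and 0.0645, while 48 and 49 were higher with p under 0.05 before adjustment and the medians were 2.60 and 3.15. Without animal 17 it called 31. In mutants, leaving out 1 animal left 26 to 39 members called, 26 without animal 94, and leaving out animals 12 and 69 together left 2, with a median of 2.77.

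By class, wild-type calls were made for 4 of 5 H1, 5 of 17 H2A, 15 of 17 H2B, 8 of 11 H3 and 12 of 13 H4 genes, and the class medians of log2 IP/input were 2.73, 3.27, 3.09, 2.71 and 2.98. H2A thus had the fewest calls for its size and the highest median. In mutants the calls were 4 of 5 H1, 9 of 14 H2A, 9 of 16 H2B, 6 of 11 H3 and 12 of 13 H4, with medians of 2.59, 3.25, 2.74, 3.44 and 2.64. By cluster, Hist1 had 38 of 51 called in wild type with a median of 3.15 and Hist2 3 of 9 with 1.67, while both Hist3 genes and Hist4h4 were called. In mutants Hist1 had 35 of 47 (median 2.93) and Hist2 2 of 9 (median 1.81). The differences between classes and clusters were not tested.

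A total of 59 members were tested in both genotypes. The genes called were shared for 35 of them, 9 were called in wild type alone, 5 in mutants alone and 10 in neither. The 5 called in mutants alone were all H2A genes (Hist1h2ag, Hist1h2ah, Hist1h2ai, Hist1h2ak and Hist1h2ao), while the 9 in wild type alone were 1 H2A gene, 6 H2B genes and 2 H3 genes. Across the 59 genes the log2 IP/input of the genotypes had a Pearson r of 0.74 and a Spearman rho of 0.66, values that describe genes measured in the same libraries and carry no test.

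**Figure D3:**
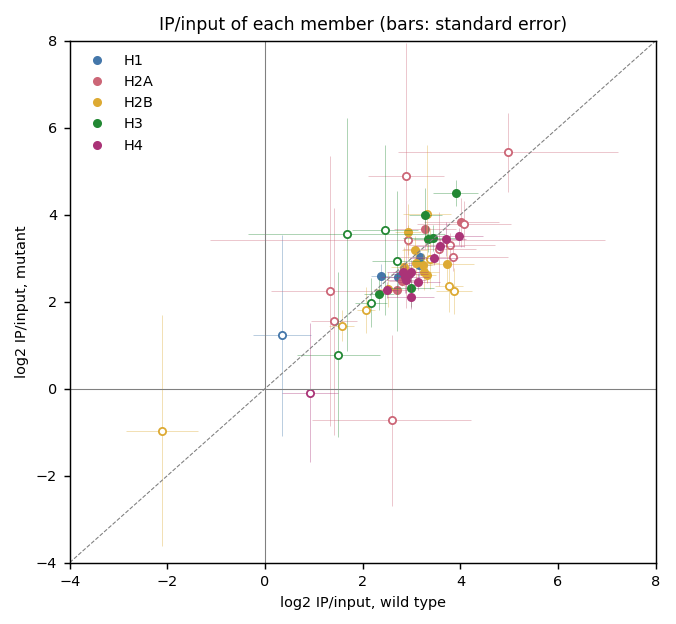
Log2 IP/input of each of 59 genes in wild type (x axis) and in mutants (y axis) with standard errors as bars, coloured by class, filled where the gene was called in both genotypes and open where it was not; the dashed line marks equal values. The 35 filled points lie in the upper right, open points are more often near 0 or have long bars, and Hist2h2be is the point below 0 on both axes (-2.11 and -0.97).

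The members with and without a stem-loop match were described by their counts and medians. With the motif in the annotated transcript, 33 of 44 members tested were called in wild type, with a median of 2.98, and without it 11 of 19, with a median of 3.17. Since 13 of these 19 are annotated to less than 20 bases after the coding sequence, this split cannot separate genes by the loop itself. Without the motif but with over 100 bases annotated there in a transcript, 3 of 4 genes were called (median 2.67). For the 27 genes with the motif in the last 200 bases, 20 were called and the median was 3.14. Genes with at least 50% unique stretches had 30 of 39 called (median 2.88) and those under 50% had 14 of 24 (median 3.30).

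Between genotypes, none of the 60 members tested in input was called by edgeR, with 2 higher and 0 lower with p under 0.05 before adjustment (DESeq2 called 1 and limma on TPM 0), where 0.0082% of all 36572 features were called. The median log2 fold change of mutant over wild type was 0.24, with 43 members above 0, beside -0.18 over all features. In bulk tissue, fewer cells of a type and less RNA per cell cannot be told apart. The median was -0.08 without wild-type animal 121, with 24 of 62 above 0, and -0.03 by limma on log2(TPM + 0.1), so its sign depended on that library and on the unit. The lower members with the smallest p were Hist1h2ah, at -1.86 (SE 2.18, adjusted p = 1.0), and Hist2h2be, at -1.23 (SE 1.46, adjusted p = 1.0). By class the medians were 0.29 in H1, 0.06 in H2A, 0.16 in H2B, 0.16 in H3 and 0.36 in H4. For 46 of the 60 members the difference was smaller than its own standard error.

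Hist1h1a had the smallest edgeR p in input, with a log2 fold change of 0.44 (SE 0.14, adjusted p = 0.432) and means of 299 ± 47.7 CPM in wild type (SD, n = 3) and 405 ± 47.5 in mutants (SD, n = 4). The lowest mutant, at 342 CPM, lay just below the highest wild type, at 343. DESeq2 called it higher in mutants (adjusted p = 0.00573), as it did 0.962% of all features. All mutants lay above all wild types for 5 members, Hist1h2ao, Hist1h2bb, Hist1h4a, Hist1h4b and Hist2h3b, and below for 0, where 2.47% and 11.3% of all features did so. Hist1h4a stood at 20.3, 39.2 and 41.1 CPM in wild-type and 47.8, 43.9, 49.1 and 51.4 in mutant input, and Hist1h4b at 3.26, 10.5 and 8.76 and 11.3, 15.5, 11.8 and 18.8. Their log2 fold changes of 0.52 (SE 0.26, adjusted p = 0.941) and 0.94 (SE 0.50, adjusted p = 1.0) were not called, nor were those of Hist1h2bb at 0.53 (SE 0.21, adjusted p = 0.675) and Hist2h3b at 0.60 (SE 0.37, adjusted p = 1.0). For Hist1h2ao the split of reads with Hist1h2ap is uncertain, and the sum of both overlapped.

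In IP, 0 of 62 members were called by edgeR, with 2 higher and 1 lower with p under 0.05 before adjustment (DESeq2 called 1 and limma on TPM 2), where 0.00764% of all 26186 features were called. The median log2 fold change was 0.43, with 56 members above 0, beside -0.15 over all features. Leaving out each animal in turn gave medians of 0.29 to 0.64. By class the medians were 0.54 in H1, 0.53 in H2A, 0.30 in H2B, 0.72 in H3 and 0.40 in H4. The summed CPM overlapped between genotypes in every class, and mutant 12 was the lowest mutant IP library in each. Without mutant 12, edgeR still called 0 of 62, with 28 higher and 1 lower with p under 0.05 before adjustment and a smallest adjusted p of 0.0781. With all animals, the number that were higher before adjustment depended on the scaling and filter, at 10 with RLE factors, 11 with upper-quartile factors, 14 with at least 10 counts in every library and 18 with DESeq2. The share of all features at that unadjusted threshold is not given, so these counts cannot be read as particular to the members.

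Hist1h1a again had the smallest p among members that were higher, with 0.65 (SE 0.16, adjusted p = 0.114). All mutants, at 2409.9, 3481, 3678 and 3759 CPM, lay above all wild types, at 2228, 2288 and 1964. DESeq2 called it higher (adjusted p = 6.96e-05), as it did 1.63% of all features, and limma on log2(TPM + 0.1) called it too (adjusted p = 0.0135). Hist1h1b was the other member with all mutants above all wild types, at 0.91 (SE 0.84, adjusted p = 1.0), against 1.72% of all features, and Hist1h2ap the only member with all mutants below, against 15.1%. Hist1h2ap was called lower by limma (adjusted p = 0.0421 on log2(TPM + 0.1)), not by edgeR at -6.06 (SE 2.43, adjusted p = 0.37), and this value depends on the split of reads described above. Of the others, Hist2h3b had 0.88 (SE 0.35, adjusted p = 0.362), Hist1h4m 0.96 (SE 0.42, adjusted p = 0.448) and Hist1h3b 0.79 (SE 0.36, adjusted p = 0.474), and their groups overlapped.

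The difference between genotypes in IP/input was fitted for the 48 members with an estimated count above 0 in every input library that also passed the filter on low counts. They include Hist1h2ao, whose count in wild-type input 140 rounds to 0. None was called by edgeR, where 0.0% of 16069 features were, and none had an unadjusted p under 0.05 in edgeR or DESeq2, while limma on TPM had 3 higher and called 0. The median difference was 0.00, with 24 members above 0 and 24 below, beside -0.29 over all features. For 39 of the 48 the difference was smaller than its standard error. For no member did all mutant ratios lie above, or all below, the wild-type ratios, where 8.61% of all features did. The median ran from -0.46 without animal 17 to 0.30 without animal 121, where all features had medians of -0.43 and -0.38. Without animals 121 and 12 together it was 0.59, with 47 of 52 members above 0, beside -0.39 over all features. Class medians were 0.16 in H1, -0.03 in H2A, -0.01 in H2B, 0.25 in H3 and -0.02 in H4. Hist1h3b had the largest positive value, 1.0 (SE 0.78, adjusted p = 0.907), from ratios of 11.9, 8.79 and 4.63 in wild type and 17.1, 72.0, 7.27 and 8.48 in mutants, and Hist1h2bq the most negative, from ratios of 17.3, 7.11 and 13.6 and 8.79, 5.01, 6.61 and 1.64. Both sets of ratios overlapped. The smallest p of higher members belonged to Hist1h3h, at 0.90 (SE 0.51, adjusted p = 0.799), and Hist1h1e, at 0.53 (SE 0.30, adjusted p = 0.801), and of lower ones to Hist1h2bq and to Hist1h2bb, at -0.39 (SE 0.24, adjusted p = 0.847).

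**Figure D4:**
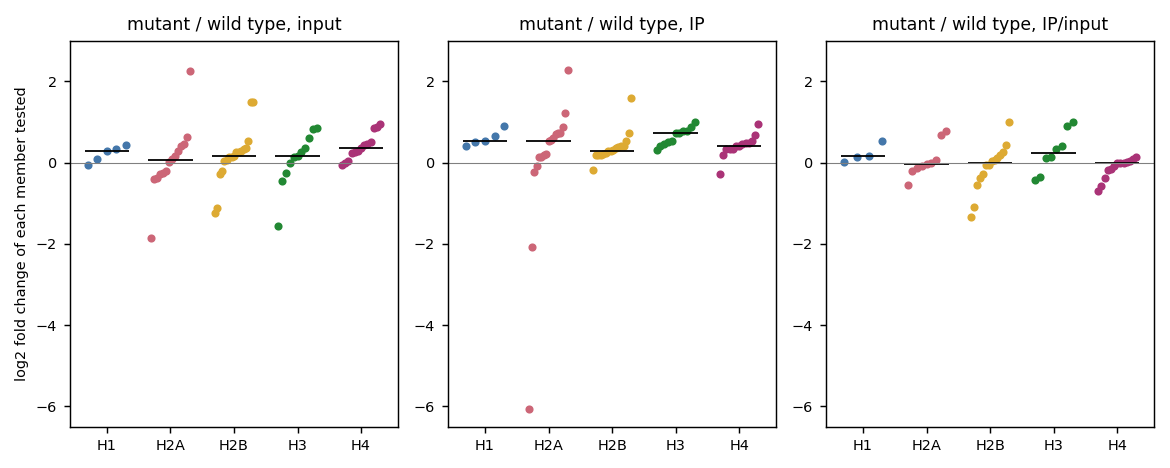
Log2 fold change of mutant over wild type for each gene tested, by class, in input (60 genes), IP (62 genes) and IP/input (48 genes), with black lines at the class medians. Most points in IP lie above 0 (56 of 62, median 0.43), the point at -6.06 is Hist1h2ap, and the points in IP/input are on both sides of 0 (24 above and 24 below), with none called by edgeR.

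Marker levels of germ cells and of untagged cells are given beside these values. None of these markers was called between genotypes by edgeR, although in input 7 of 10 pachytene and diplotene, 4 of 9 round spermatid and 3 of 7 proliferation markers were lower with p under 0.05 before adjustment. Their median log2 fold changes were -0.63, -1.22 and -0.57. Markers of untagged cells were mostly above 0 in input: 9 of 10 Sertoli markers (median 0.28, 3 of them with p under 0.05 before adjustment), 6 of 6 Leydig (median 0.28), 6 of 6 macrophage (median 0.26) and 6 of 6 vessel and red blood cell markers (median 0.61). In IP they were mixed, with 4 of 10 Sertoli (median -0.56) and 1 of 5 Leydig markers (median -0.88) above 0. Above 0 in IP were also 3 of 4 macrophage (median 0.72) and 3 of 5 vessel and red blood cell markers (median 0.14). The sum of 13 spermatogonial markers was 443 to 469 CPM in wild-type input and 293 to 411 in mutant input, and 773 to 925 and 813 to 1147 in IP. Taken singly, 8 of the 13 were above 0 in input (median 0.28), with 0 higher and 1 lower with p under 0.05 before adjustment. In IP 10 of the 13 were above 0 (median 0.41), with 3 higher and 0 lower at that threshold. Lin28a was at 0 in some input libraries of both genotypes, and Sall4, Sohlh1 and Nanos3 in some mutant ones. The 7 proliferation markers, none at 0 in any library, summed to 748 to 874 CPM in wild-type and 558 to 745 in mutant input, and to 1540 to 1833 and 1408 to 1781 in IP. The 10 pachytene and diplotene markers, also none at 0, summed to 4130 to 4577 and 2855 to 3451 CPM in input and to 8692 to 10030 and 6647 to 7138 in IP. The 9 round spermatid markers summed to 278 to 340 and 152 to 181 CPM in input, with Tnp1, Prm1 and Prm2 at 0 in some mutant libraries. The part of these levels in the histone values was not tested.

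H2A genes varied most between libraries of 1 group. The median deviation of H2A genes from their group mean, on the log2 scale, was -1.10 in wild-type input 121 and 1.44 in wild-type input 140, and -1.20 in mutant input 12 and 0.87 in mutant input 94. In IP it was 0.82 in wild type 140, -0.70 in wild type 17 and -1.53 in mutant 12. The other classes moved the same way in most of these libraries, by less: in mutant IP 12 they stood at -0.67 in H1, -0.60 in H2B, -0.99 in H3 and -0.62 in H4. H2A was also the class with the highest GC content, a median of 64.2% against 54.5% in H1. The 607 other coding genes with 60% GC or more deviated by -0.24 to 0.19 in the same libraries, lowest in mutant IP 12. The part of GC content in these values was not tested.

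**Figure D5:**
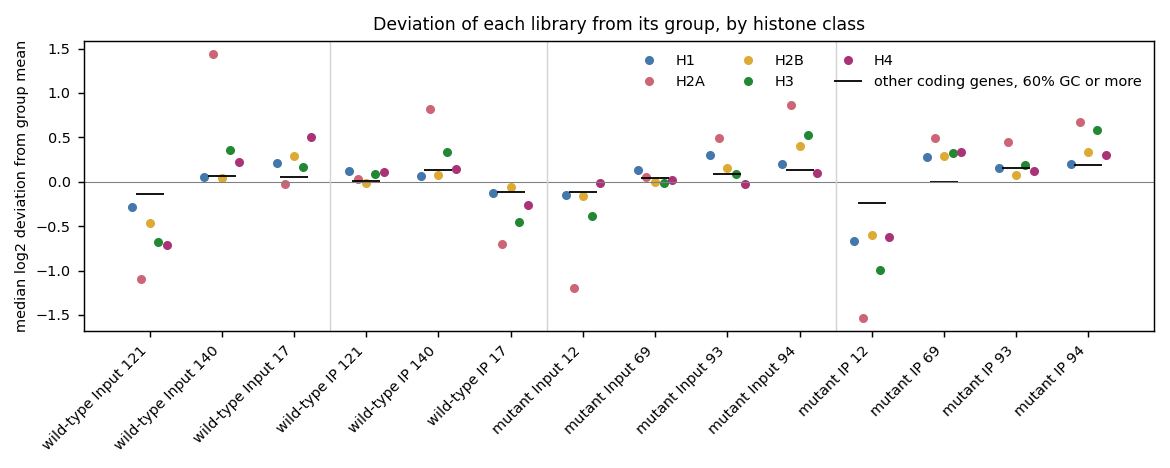
Median deviation of the genes of each class from their group mean (log2 CPM), for each of the 14 libraries, with black lines for the 607 other coding genes of 60% GC or more. H2A (from -1.53 in mutant IP 12 to 1.44 in wild-type input 140) spans more than every other class and than the black lines (-0.24 to 0.19).

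An H2A and an H2B gene stood head to head in 11 pairs, with 176 to 302 bases between their annotated starts, so that each pair shares its promoter region. Levels within a pair were unequal. Hist1h2bj had a mean of 892 TPM over the 14 libraries against 165 for Hist1h2ag, and Hist1h2bg 67.5 against 2.70 for Hist1h2ae, while Hist1h2ai with 603 TPM exceeded Hist1h2bl with 110. In wild type the log2 IP/input of both partners was above 0 in 10 of the 11 pairs, the exception being Hist2h2ac at 1.42 and Hist2h2be at -2.11.

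The genes that make or accompany the histones in S phase were measured in the same fits. Slbp, which encodes the stem-loop binding protein, stood at 142, 147 and 148 CPM in wild-type input, 438, 417 and 389 in IP, 116, 83.0, 114 and 142 in mutant input and 324, 371, 330.1 and 354 in IP, with log2 IP/input of 1.82 (SE 0.10, adjusted p = 0.00634) and 1.62 (SE 0.14, adjusted p = 0.00248). Of the list of histone mRNA processing and turnover, 8 of 19 tested were called higher in IP in wild type and 1 lower, with a median of 0.67, and 4 higher and 0 lower in mutants. It included Upf1 (2.49), which acts in decay of these mRNAs, and Cpsf3 (1.71), the nuclease that cuts them at the loop. Of the S phase and DNA replication list, 31 of 37 were higher and 0 lower in wild type (median 1.58) and 18 in mutants (median 1.55), with Mcm2 at 2.64 and Mcm4 at 2.23, subunits of the replicative helicase. Of the histone chaperones of replication, 15 of 18 were higher in wild type (median 1.14), with Nap1l1 at 2.08 and Hat1, a histone acetyltransferase of new H4, at 1.86, and 9 were higher and 1 lower in mutants. The members' median of 2.98 lay above the medians of these lists in wild type. No gene of these lists was called between genotypes by edgeR in input, IP or IP/input.

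The 3 germline histone genes outside the rule were higher in IP as well. Hist1h2ba, the germline H2B, stood at 389, 798 and 654 CPM in wild-type input, 4326, 4745 and 3536 in IP, 558, 585, 708 and 788 in mutant input and 3043, 4854, 5085 and 5439 in IP. Its mean of 13137 TPM over all libraries exceeded that of every member. Its log2 IP/input was 3.14 (SE 0.29, adjusted p = 0.00845) and 2.78 (SE 0.12, adjusted p = 0.000791). Hist1h1t, the linker histone of pachytene spermatocytes, stood at 343, 357 and 366 CPM in wild-type input, 1646, 2082 and 1576 in IP, 271, 252, 282 and 373 in mutant input and 1290.0, 1224, 1519 and 1732 in IP, with 2.62 (SE 0.11, adjusted p = 0.00634) and 2.29 (SE 0.09, adjusted p = 0.000618). Hist1h2aa, the germline H2A, had 133, 181 and 222 CPM in wild-type input, 680.1, 823 and 662 in IP, 221, 182, 249.7 and 255 in mutant input and 629.6, 779.5, 962 and 1118 in IP, with 2.35 (SE 0.20, adjusted p = 0.00768) and 1.92 (SE 0.15, adjusted p = 0.00187). In contrast Hils1, a spermatid linker histone, was lower in IP in wild type at -3.32 (SE 0.61, adjusted p = 0.0349). Of the germline histone list, 3 of 6 tested were called higher and 1 lower in wild type, and of the replacement variants, made outside S phase, 7 of 11 higher (median 1.61), with H3f3b at 1.61, H2afv at 1.78 and H2afy at 1.96. In mutants 5 of 11 replacement variants were called higher. The level of the replacement variants summed to 1380 to 1720 CPM in wild-type input and 3791 to 5296 in IP.

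Markers of the tagged and the untagged cells were measured in the same fits. In wild type 9 of 13 spermatogonial markers were called higher in IP and 1 lower (median 2.57), with Stra8 at 2.61 and Dmrt1 at 2.37, and all 7 proliferation markers were higher (median 1.37), with Bub1b at 1.78 and Mki67 at 1.25. Pachytene and diplotene markers were mixed, with 6 higher and 3 lower of 10 and values from -3.13 (Pgk2) to 2.85. Pdha2, among those called higher, had 2.01. Of round spermatid markers 1 was higher and 3 lower of 9. Of Sertoli markers 0 were higher and 8 lower of 10 (median -2.28), of Leydig markers 0 and 5 of 6 (median -2.25), of macrophage markers 0 and 2 of 6 (median -3.49) and of vessel and red blood cell markers 0 and 3 of 6 (median -2.98). The Sertoli markers summed to 889 to 1012 CPM in wild-type input and 220 to 361 in wild-type IP, and to 992 to 1456 and 174 to 284 in mutants. The members' median of 2.98 lay above those of the spermatogonial (2.57), proliferation (1.37) and pachytene and diplotene markers (0.91). These differences were not tested.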

How the data were processed

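RNA of input and IP fractions from 7 animals was sequenced as 14 stranded total RNA libraries depleted of ribosomal RNA. The authors trimmed paired reads to 100 bases, removed ribosomal reads in silico and deposited 1 table per library of RSEM (version 1.3.3, per the submitters' processing notes) expected counts and TPM values per transcript, on GRCm38 with assembled transcripts added. RSEM divides reads that fit several transcripts by a statistical estimate, which makes values of near-identical histone genes uncertain.

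From these deposited expected counts, transcripts were summed by GENCODE M21 symbol, rounded and, with each assembled transcript kept as its own feature, gave 102531 features. Spike-in rows were left out. CPM values and log2 fold changes were computed here from the deposited counts, the CPM values with TMM factors estimated over all 14 libraries. edgeR 4.0.16 (R 4.3.3; TMM factors, filterByExpr, robust quasi-likelihood test, two-sided, Benjamini-Hochberg over all features, called at an adjusted p under 0.05) compared mutants with wild types in input and in IP, IP with input within each genotype, and IP/input between genotypes. The last required counts above 0 in every input library. Each edgeR SE was derived from the test, as the absolute log2 fold change divided by the square root of its F statistic. A difference smaller than its SE therefore means an F under 1. The animal was the block in fits with both fractions, since titles give input and IP of the same animal the same number. Their deviations from group means correlated by 0.0089 to 0.048 over 41559 features. DESeq2 1.42.0, limma 3.58.1 on log2(TPM + 0.1) and log2(TPM + 1), other scalings, filters and feature sets, leaving out animals and the fits without the block were alternatives. The tests were tested on simulated data with a small uniform spread, well-counted features and no animal effect or reads shared between copies. Those simulations do not cover members with low or shared counts. Tables and figures were made with Python 3.11.15, numpy 2.4.6, pandas 2.3.3 and scipy 1.17.1. P-values measure the spread between animals. The study's own EBSeq and ratio tests were not used here. Counts at p under 0.05 before adjustment, and limma calls, are given without the share of all features that passed.

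The members, gene lists and marker lists were chosen with earlier results of these data known. Members were named if they had 1 of the 3 highest mean TPM values of their class, the highest or lowest wild-type IP/input of their class, 1 of the 2 smallest p-values per direction in a comparison, or a place in Hist3 or Hist4. Hist1h4a and Hist1h4b were named after their values were seen. Of other genes, Adad2, Slbp, the germline histones left out and up to 4 genes per list were named. Total counts of 22987974 to 30871330 per library set the precision.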

Additional observations from a re-analysis of the deposited data

Results flagged for a closer look

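In 6 of 74 groups of 4 mutant libraries, 1 value stood far from the others, by a gap to its nearest neighbour that took most of the group's range. For continuous values, chance gives about 1 in 20 such groups. That rate does not hold for the Hist1h2ap and Hist1h2bh groups below, where all other values were 0 and the gap was the whole range. The number of groups flagged is thus not comparable with it. The summed H2B level in mutant input was 351 CPM in animal 94, against 280 to 285 in the others. Hist1h2ap was at 10.2 CPM in mutant input 94 and at 0 in the other mutant inputs, and at 6.35 CPM in mutant IP 12 and at 0 in the other mutant IP libraries. Its reads can be assigned to Hist1h2ao. Hist1h2bb stood at 235 CPM in mutant IP 12, against 401 to 427 in the others. Hist2h4 stood at 10.1 CPM in mutant IP 94, with the others at 2.93 to 3.72. Hist1h2bh was at 0.0332 CPM in mutant IP 94 and at 0 in the others, which is below the level that a count of 0 allows.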

How the results depend on the processing

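No called direction was reversed under the alternatives run. Calls between genotypes rose from 0 to 1 in input and to 1 in IP with DESeq2, and to 2 in IP with limma on either TPM scale. Leaving out each animal in turn gave 0 to 31 calls in wild-type IP/input and 26 to 39 in mutants, and medians of -0.08 to 0.43 in input, 0.29 to 0.64 in IP, 2.60 to 3.28 and 2.61 to 2.98 in IP/input of wild type and mutants, and -0.46 to 0.30 for their difference. In the fits that gave -0.46 and 0.30, all features had medians of -0.43 and -0.38. An adjusted p under 0.01 left 17 wild-type calls. With limma the mutant median was 3.6 and 3.56, where the median of all features was 0.34 and 0.32. Alternatives chosen after seeing the data gave 2 mutant calls without animals 12 and 69. They also gave a median difference of 0.59 without 121 and 12, beside -0.39 over all features. The cause was not tested. By summed TPM the members' mean share was 0.311% and 0.326% in wild-type and mutant input and 3.48% and 4.60% in IP. Without the animal as replicate block, calls were 45 in wild type (1 of them lower), 45 in mutants and 0 between genotypes, with medians of 2.90, 2.73 and 0.10. Scaling by RLE factors moved the median of all features from -0.15 to -0.05 in IP and from -0.63 to -0.76 in mutant IP/input. Of 2205 values of named genes recomputed, 78 lost and 32 gained a call. Depth limits genes near 0.096 to 0.132 CPM.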
